A study of Mus musculus with 8 samples.

Results

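The genes examined here were 9 products of the exocrine pancreas, *Gp2*, *Cuzd1*, *Zg16*, *Sycn*, *Dmbt1*, *Klk1*, *Klk1b5*, *Rnase1* and *Ggh*. They were taken by symbol as 9 of the 19945 gene rows of a scRNA-seq count table, and their levels were read in 14 cell classes and 2 libraries. The cells came from islets isolated from wild-type mice given vehicle or FAKi, the focal adhesion kinase inhibitor PF562271, at 50 mg/kg with 2 doses a day for 3 weeks. In both groups the islets were collected 10 days after dosing ended, and those of 5 mice were pooled into each library. FAKi was dissolved in DMSO and given by mouth with Gelucire, and the make-up of the vehicle is not spelled out in the sources used here. The study states that its mice were of both sexes and young at the start, and the labels give no age, sex or strain for the animals of these libraries. The 8 samples are 4 sequencing lanes of each library, so each condition is 1 library and no test across animals could be made. Intervals given below are 95% intervals and cover counting error only. The acinar cells are those that came along with handpicked islets, which is a limit on what they represent of the exocrine gland.

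Acinar cells store digestive enzymes in zymogen granules, which fuse with the apical membrane when the cell is stimulated. Besides the enzymes themselves, these granules carry membrane and matrix proteins that help to pack the cargo. GP2 is their main glycosylphosphatidylinositol-anchored membrane protein, CUZD1 is a granule membrane protein with CUB and zona pellucida-like domains, ZG16 is a lectin of the granule matrix, and syncollin, the product of *Sycn*, lies on the inner face of the granule membrane. DMBT1 is a large mucin-like scavenger receptor protein made by acinar cells and by other mucosal epithelia. *Klk1* encodes tissue kallikrein, a serine protease, and *Klk1b5* is a neighbouring paralog. *Rnase1* encodes pancreatic ribonuclease, a secreted digestive enzyme. GGH, γ-glutamyl hydrolase, is a lysosomal and secreted enzyme that trims the glutamate tail of folates, and unlike the others it is used by many cell types.

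Of the 9 genes, 7 lie on mouse chromosome 7 (GRCm38, GENCODE vM21). *Klk1b5* (chr7:44215945-44220703, plus strand) and *Klk1* (chr7:44225360-44229618, plus strand) are neighbours separated by 4656 bases. *Sycn* spans chr7:28540885-28542209, *Gp2* chr7:119442537-119459285, *Zg16* chr7:127050156-127087328, *Dmbt1* chr7:131032053-131121630 and *Cuzd1* chr7:131308554-131322292. *Rnase1* lies at chr14:51144998-51146785 and *Ggh* at chr4:20042052-20066750. All are annotated as protein coding. The models of *Cuzd1* and *Dmbt1* overlap that of *Fgfr2*, *Sycn* overlaps *Samd4b*, *Zg16* overlaps *Gm22747* and *Gm44939*, and *Klk1* overlaps *Gm10109*, so reads in the shared stretches may have been given to either gene or dropped.

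The kallikrein pair needs care because its members are near copies. The coding sequences of *Klk1* and *Klk1b5* are both 786 bases long and match at 748 of these, an identity of 95.2% with no gap. After the stop codon each gene has 49 further annotated bases, at the 3′ end where this assay starts, and 48 of these match, so reads confined to that stretch hardly tell the genes apart. The last 60 coding bases are shown because they lie just before it and differ at 13 positions, which are in capitals.
Klk1 (chr7:44229510-44229569): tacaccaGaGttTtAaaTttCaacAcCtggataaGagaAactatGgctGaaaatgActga
Klk1b5 (chr7:44220595-44220654): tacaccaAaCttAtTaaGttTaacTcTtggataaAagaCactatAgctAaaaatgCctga
Elsewhere, the longest run of identical coding bases is 145, which is longer than the 98 bases of a read. UMIs of *Klk1b5* are therefore given as uncertain throughout.

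Promoters were read for 6 of the 9 genes from RefSeq (GRCm38.p6, 250 bases before to 50 after the start of each gene), leaving out *Zg16*, *Dmbt1* and *Ggh*. PTF1, the acinar transcription factor complex, is known to bind an E-box beside the RBPJ-type core. The core, searched as TGGGAA, was present on either strand in 5 of these 6 promoters, all but that of *Cuzd1*, and in 25.6% of the 32851 promoters of the table. The E-box CACCTG was present in 2 of the 6, *Klk1* and *Klk1b5*, against 20.2% of all promoters and 12 of 20 promoters of other acinar secretory genes. Both letter strings, which do not overlap, stood in 2 of the 6, in 5.27% of all promoters and in 6 of the 20, and in the kallikrein pair their first bases lay 39 bases apart in each gene. The 30 bases around TGGGAA (capitals, as its reverse complement where it lies on the other strand) are shown for the 5 genes that hold it, each on the gene's strand. The windows of the kallikrein pair are near copies, and *Gp2* holds a second match nearer its start that is not shown. The RefSeq start of *Klk1b5* lies downstream of the GENCODE start, so its window falls inside the span given above.
Gp2 (chr7:119459353-119459382): agtcctagtgccTGGGAActtagtgccagt
Sycn (chr7:28540848-28540877): atatattctctcTTCCCAtgggtcataagt
Klk1 (chr7:44225222-44225251): caatctcagaccTGGGAAggtatccaaggt
Klk1b5 (chr7:44216244-44216273): taatctcatcccTGGGAAggtgtccagggt
Rnase1 (chr14:51146940-51146969): tctgctgcccctTGGGAAtcagcacaggag
A match of letters is a description of the sequence only. The other acinar secretory genes are a list of 25 (trypsins, chymotrypsins, elastases, carboxypeptidases, lipases, amylases and related genes) that serves for comparison below, of which 20 had a promoter in the table and 11 of these held TGGGAA.

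The vehicle library held 3776 cells with 59514118 UMIs and the FAKi library 3183 cells with 57836783 UMIs, after the authors' filters, while the labels state 8832 and 8437 cells put into sequencing. Doublet calling marked 68 and 57 cells, none of them in acinar class 2, and 4 barcodes occurred in both libraries. The authors' 2 acinar classes were kept as deposited. The summed level of 6 acinar markers (*Cpa1*, *Prss2*, *Ctrb1*, *Cela1*, *Pnlip*, *Ptf1a*), as CPM (UMIs of a gene scaled to a common total per class and library), was 225662 and 191129 in class 1 and 340364 and 346042 in class 2, vehicle first, with all 6 detected in each. Class 1 also held 5 β-cell markers (*Ins1*, *Ins2*, *Iapp*, *Nkx6-1*, *Mafa*) at 157425 and 252089 CPM, against 6983 and 9543 in class 2. Class 1 cells were shallow, with medians of 1480 and 1140 UMIs, while the medians of class 2 were 7931 and 7280. Cells labelled T cells in the FAKi library, 28 in number, carried the β-cell markers at 456346 CPM and 3 T-cell markers at 55.8 CPM, so this label did not match its content there. In vehicle the cells of this label held the β-cell markers at 84250 CPM and the T-cell markers at 904.5. The 9 FAKi cells labelled B cells held 4 macrophage markers at 769 CPM and 3 B-cell markers at 443, so that label is uncertain there too. The class labelled δ-cells held *Ppy*, the hormone of PP cells, at 144939 and 141153 CPM, above the δ-cell markers at 109122 and 107298, and is called by its label here.

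Together the 9 genes made up 125847 UMIs of the vehicle library, or 0.212% of all, and 142801 UMIs of the FAKi library, or 0.247%. The acinar classes, with 247 and 411 of the cells, held 81.7% and 84.5% of these UMIs. By gene and over both libraries, the acinar share ran from 72.5% for *Dmbt1* to 88.5% for *Klk1*, with *Ggh* apart at 23.6%. *Zg16*, *Rnase1* and *Sycn* were the abundant members, at 87815, 80984 and 70098 UMIs. *Klk1b5* had 140 UMIs in all. Each UMI stands for a captured transcript end, so levels were not scaled to gene length.

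**Figure D1:**
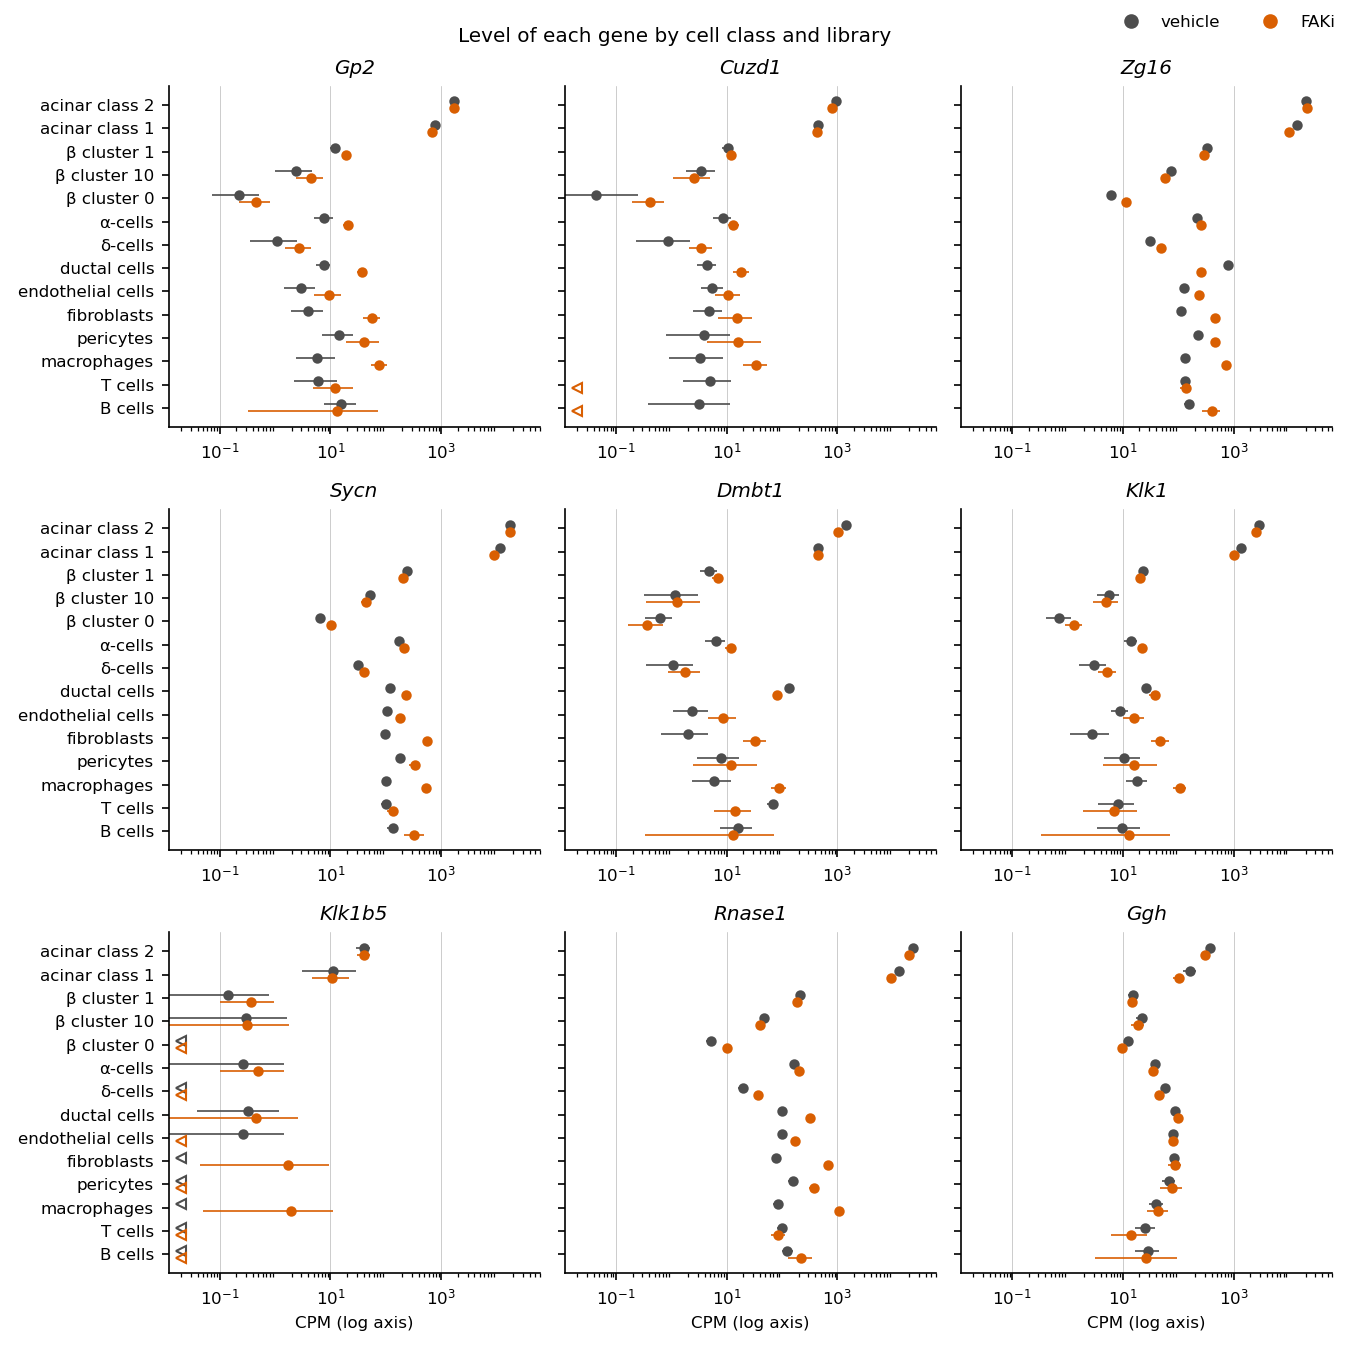
Level of each of the 9 genes (CPM of summed UMIs, log axis) in 14 cell classes, with vehicle in grey and FAKi in orange, and bars for exact Poisson 95% intervals; open triangles at the left edge mark classes with no UMI. Acinar class 2 is highest and class 1 second in each panel, and only *Ggh* stays within a narrow band in the other classes.

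Acinar class 2 held the highest level of each of the 9 genes in both libraries, and acinar class 1 the second highest. *Rnase1* stood at 23377 CPM in vehicle and 19498 in FAKi class 2 cells, and at 12919 and 9397 in class 1. *Zg16* reached 19994 and 21417 CPM in class 2 and 14100 and 10193 in class 1. *Sycn* was at 17481 and 17525 CPM in class 2 and at 11737 and 9022 in class 1. The lectin, the luminal granule protein and the ribonuclease thus had transcripts in like amounts. *Zg16* was the highest of them in class 1 of both libraries and in FAKi class 2, and *Rnase1* in vehicle class 2.

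The other members were several times lower or less abundant still. *Klk1* was at 2937 and 2499 CPM in class 2 and 1354 and 1006 in class 1, and *Gp2* at 1678 and 1713 CPM against 771 and 689. *Dmbt1* measured 1447 and 1031 CPM in class 2 and 439 and 438 in class 1. *Cuzd1* measured 964 and 803 CPM in class 2 and 456 and 436 in class 1, so that the granule membrane proteins GP2 and CUZD1 had far fewer transcripts than the matrix and luminal ones. *Ggh* was at 376 and 302 CPM in class 2 and 162 and 103 in class 1. *Klk1b5* was the rarest, at 39.6 CPM (interval 29.5 to 52.0) and 39.8 (30.4 to 51.2) in class 2, from 51 and 60 UMIs, and at 11.3 and 10.9 CPM in class 1, from 4 and 8.

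The intervals of the 2 acinar classes did not overlap each other for any of the 9 genes in either library. How many of all genes were apart in this way was not counted, so this is a description. Nor did class 1 overlap any other class, except for *Ggh* in FAKi and *Klk1b5* in both libraries. *Ggh* in FAKi class 1 (103 CPM) overlapped ductal cells (100.4 CPM), fibroblasts, endothelial cells, pericytes and B cells. *Klk1b5* in FAKi class 1 overlapped macrophages and fibroblasts, where it rested on 1 UMI each, and B cells, T cells and pericytes, with none. The FAKi B-cell interval for *Klk1b5*, from 9 cells, reached class 2 as well. Vehicle class 1 overlapped B cells, T cells and pericytes for *Klk1b5*, with no UMI there. Below the acinar classes the order changed from gene to gene and most neighbours overlapped.

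The study described its acinar classes by their acinar and β-cell genes. It named *Klk1* among the acinar genes that were lower in its acinar cluster 1. It also gave zymogen granule terms as suppressed in that cluster with FAKi. The comparison here uses the same cells and asks how the 9 genes differ between the classes. In the vehicle library each of the 9 genes was lower in class 1 than in class 2. *Dmbt1* was the most reduced of the well counted genes, with a ratio of 0.303 (interval 0.256 to 0.358), followed by *Ggh* at 0.430 (0.321 to 0.567), *Gp2* at 0.459 (0.404 to 0.521), *Klk1* at 0.461 (0.418 to 0.507) and *Cuzd1* at 0.473 (0.399 to 0.558). *Rnase1* was at 0.553 (0.535 to 0.570), *Sycn* at 0.671 (0.649 to 0.694) and *Zg16* at 0.705 (0.684 to 0.727). *Klk1b5*, at 0.286, had the wide interval of 0.0752 to 0.779.

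In the FAKi library, too, all 9 were lower in class 1. *Ggh* was at 0.343 (0.265 to 0.438), *Gp2* at 0.402 (0.365 to 0.442), *Klk1* at 0.402 (0.371 to 0.435) and *Dmbt1* at 0.425 (0.376 to 0.480). *Zg16*, at 0.476 (0.464 to 0.488), and *Rnase1*, at 0.482 (0.469 to 0.495), were nearer to these than in the vehicle library. *Sycn* was at 0.515 (0.501 to 0.529), *Cuzd1*, the least reduced here, at 0.542 (0.478 to 0.614) and *Klk1b5* at 0.274 (0.113 to 0.574).

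Read against all genes with at least 100 UMIs in the cells compared, 5 of 8 members that passed this filter were at least 2-fold lower in class 1 of the vehicle library, where 4.34% of 369 genes were, and 6 of 8 in the FAKi library, where 6.17% of 567 genes were. The median log2 ratio of the 9 genes was -1.12 in vehicle and -1.23 in FAKi, on log2(CPM + 1), while that of all genes past the filter was 0.20 and 0.36. The filter kept out *Klk1b5*. *Ggh*, counted as lower in both libraries, had 57 and 76 UMIs in class 1, vehicle first. It passed only through its 484 and 455 UMIs in class 2, so its call adds no support. Because the classes are clusters of the same cells and were drawn with these genes among the data, these values describe the classes and are no test of them. The β-cell markers given above, all 5 of them detected, moved with the class in the opposite direction, and without 7 hormone genes in the total the median was -0.87 in vehicle and -0.80 in FAKi. Without the 20 most abundant genes in the total it was -1.94 and -1.80.

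**Figure D2:**
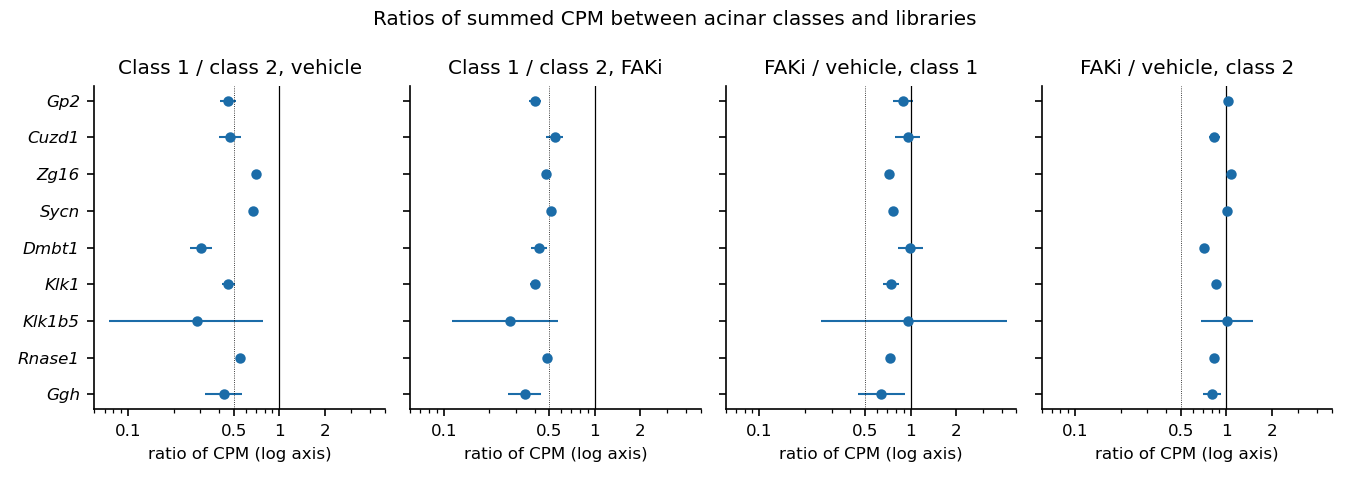
Ratio of CPM (log axis) for the 9 genes between acinar classes in each library (left pair) and between libraries in each class (right pair), with exact conditional 95% intervals; the solid line marks 1 and the dotted line 0.5. All points of the left pair lie below 1, while those of class 2 between libraries lie between 0.712 for *Dmbt1* and 1.07 for *Zg16*.

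A measure that does not depend on the hormone share is the number of UMIs of a member per 1000 UMIs of the 25 other acinar secretory genes in the same cells. On this scale *Zg16* was at 29.3 in class 1 and 29.0 in class 2 of the vehicle library, a ratio of 1.01 (0.980 to 1.04), and *Sycn* at 24.4 and 25.4, a ratio of 0.961 (0.930 to 0.994). Against the same enzymes *Dmbt1* stood at 0.913 in class 1 and 2.10 in class 2, a ratio of 0.434 (0.367 to 0.512), and *Gp2* at 1.60 and 2.44, a ratio of 0.658 (0.578 to 0.747). *Klk1* had a ratio of 0.661 (0.599 to 0.727), *Cuzd1* 0.678 (0.572 to 0.799), *Ggh* 0.616 (0.460 to 0.811) and *Rnase1* 0.791 (0.767 to 0.816). So, in vehicle cells, the share of *Zg16* and *Sycn* among secretory transcripts was much the same in both classes and that of the other well counted members was lower in class 1.

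In the FAKi library the ratios on this scale were 0.714 (0.648 to 0.785) for *Gp2*, 0.714 (0.659 to 0.773) for *Klk1*, 0.755 (0.667 to 0.852) for *Dmbt1* and 0.608 (0.471 to 0.777) for *Ggh*. *Zg16* was at 0.845 (0.824 to 0.867), *Rnase1* at 0.856 (0.833 to 0.878) and *Sycn* at 0.914 (0.890 to 0.939). *Cuzd1*, at 0.963 (0.848 to 1.09), was the member whose interval held 1, apart from the sparse *Klk1b5*. The difference between the libraries in these ratios was not tested.

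Within a class the cells spread widely. In vehicle class 2 the CPM of *Rnase1* ran from 11723 in the lowest of 86 cells through a median of 21609 to 49183 in the highest, and in FAKi class 2 from 8187 through 16888 to 43627 in 114 cells. *Zg16* ran from 8302 through 18724 to 39261 in vehicle class 2 and from 7309 through 17611 to 37774 in FAKi. *Sycn* ran from 8684 through 16399 to 33100 and from 6166 through 15317 to 30991. For each of these the cells of both libraries overlapped over nearly their whole range.

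*Gp2* in class 2 had a median of 1567 CPM over vehicle cells, with a highest cell of 4434, and a median of 1845 over FAKi cells, with a highest cell of 8034. The medians of *Dmbt1* were close, at 1164 and 1093 CPM, although its summed level differed. A single vehicle cell held 292 of the 1865 *Dmbt1* UMIs of the class, or 15.7%. *Klk1* had medians of 2809 and 2753 CPM. In class 1 the median cell had 1 UMI of *Klk1* and of *Gp2* and none of *Dmbt1* and *Ggh* in either library, so that single-cell levels there are read in steps of a UMI.

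**Figure D3:**
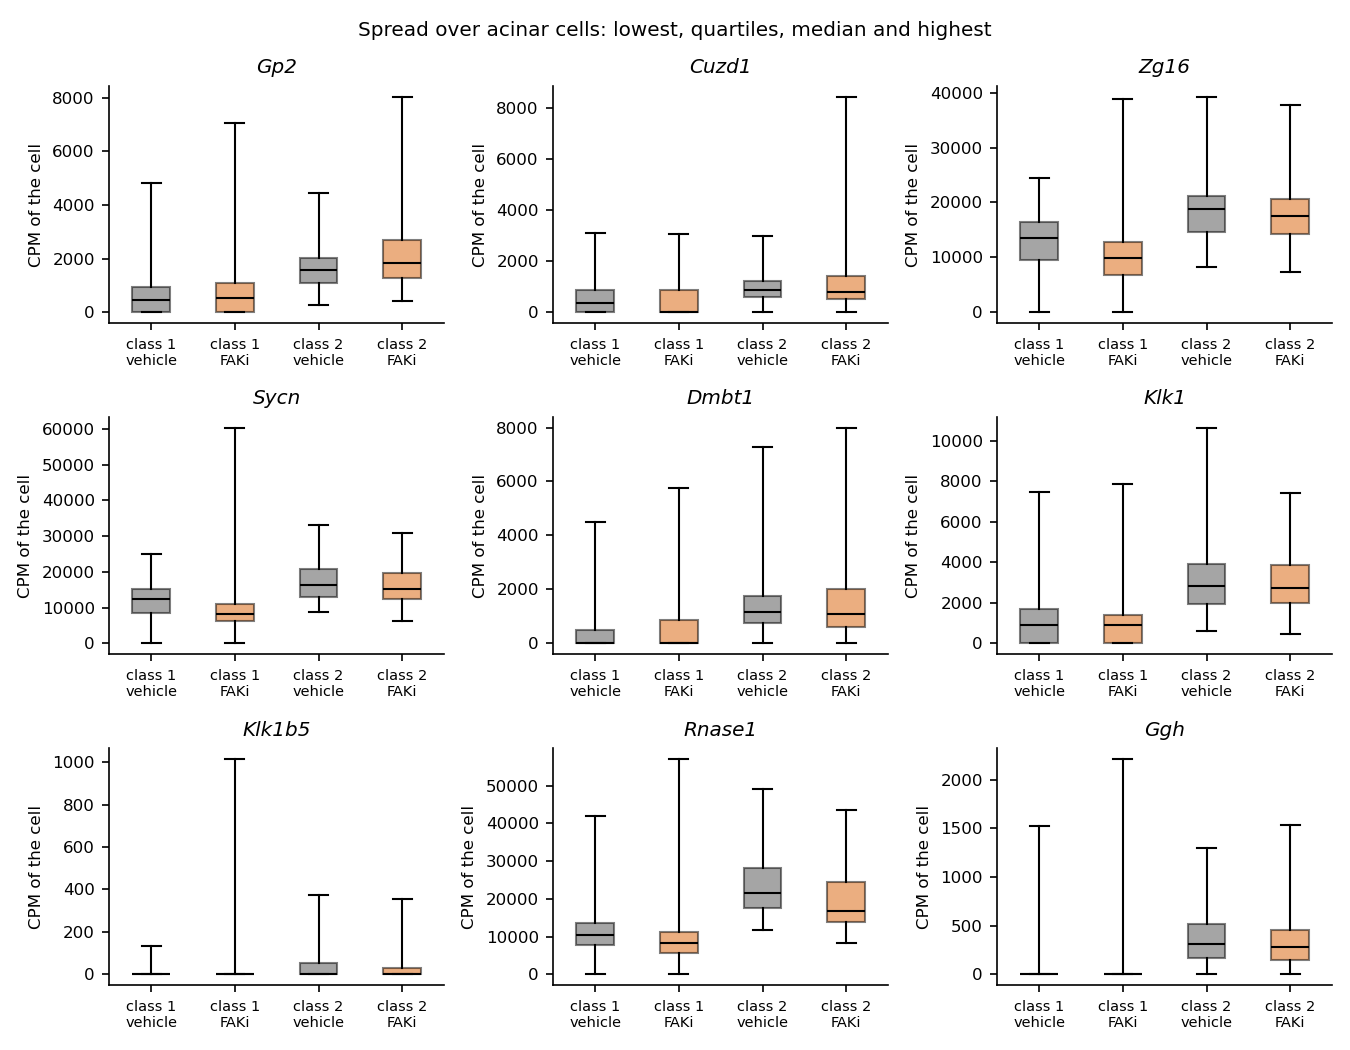
CPM of single acinar cells for the 9 genes, by class and library, with vehicle in grey and FAKi in orange; the box spans the quartiles, the line is the median and the whiskers reach the lowest and highest cell. Boxes of vehicle and FAKi overlap within each class, and the medians of class 1 lie below those of class 2 for every gene but *Klk1b5*, whose medians are 0.

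The share of cells with at least 1 UMI follows depth, so it was also taken after thinning each cell to 1000 UMIs, which left out 26 vehicle and 89 FAKi cells of class 1 as too shallow. *Zg16*, *Sycn* and *Rnase1* had a UMI in all class 2 cells and in 98.0 to 99.0% of class 1 cells. *Gp2* was found in 100% of class 2 cells and, after thinning, in 75.6% of vehicle and 85.1% of FAKi cells. In class 1 it was found in 54.7% and 57.2% as deposited and in 43.0% and 49.5% after thinning. *Klk1* was found in 88.4% and 88.6% of thinned class 2 cells and in 65.9% and 59.1% of thinned class 1 cells. *Dmbt1* was found in 67.4% and 63.2% of thinned class 2 cells and 26.7% and 37.5% of thinned class 1 cells. *Ggh* was found in 25.6% and 28.9% and in 10.4% and 9.62%, and *Klk1b5* in at most 5.81% of thinned cells. At equal depth, too, *Gp2*, *Klk1*, *Dmbt1* and *Ggh* were detected in a smaller share of class 1 than of class 2 cells.

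Between the libraries the members moved less than between the classes. In class 1, *Zg16* was lower in FAKi with a ratio of 0.723 (0.697 to 0.750), *Rnase1* with 0.727 (0.701 to 0.755), *Klk1* with 0.743 (0.661 to 0.835), *Sycn* with 0.769 (0.739 to 0.799) and *Ggh* with 0.640 (0.448 to 0.919). The intervals of *Gp2* at 0.894 (0.770 to 1.04), *Cuzd1* at 0.955 (0.787 to 1.16), *Dmbt1* at 0.998 (0.821 to 1.22) and *Klk1b5* held 1. No member of the 8 past the filter was 2-fold lower, where 1.35% of 370 genes were. The median log2 ratio of the 9 genes was -0.38, and that of all genes was -0.03. On cells thinned to 1000 UMIs it was -0.11. β-cell markers stood higher in FAKi class 1 (252089 against 157425 CPM) and acinar markers lower (191129 against 225662 CPM). Without the hormone genes in the total, *Rnase1* had a log2 ratio of -0.27 in place of -0.46 and *Klk1* -0.24 in place of -0.43.

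In class 2, which held few β-cell transcripts, *Dmbt1* was at 0.712 (0.665 to 0.762) in FAKi over vehicle, *Ggh* at 0.804 (0.706 to 0.915), *Cuzd1* at 0.833 (0.769 to 0.903), *Rnase1* at 0.834 (0.821 to 0.848) and *Klk1* at 0.851 (0.813 to 0.891). *Gp2* at 1.02 (0.964 to 1.08), *Sycn* at 1.00 (0.985 to 1.02) and *Klk1b5* at 1.01 (0.681 to 1.49) had intervals that held 1, and *Zg16* was at 1.07 (1.05 to 1.09). None of the 9 was 2-fold lower, against 0.73% of 548 genes. The directions for *Cuzd1*, *Dmbt1* and *Zg16* turned when each cell was given equal weight, to log2 ratios of 0.15, 0.11 and -0.019, and those of *Cuzd1*, *Dmbt1* and *Ggh* turned on thinned cells, to 0.20, 0.011 and 0.26. *Rnase1* kept its direction in all of these, at -0.26 with equal weight and -0.22 on thinned cells. With 1 library per condition, the spread between animals is unknown, and treatment and library cannot be told apart.

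Outside the acinar classes 8 of the 9 genes had UMIs in nearly all of the 12 other classes, at far lower levels. For *Rnase1* the level in these classes ran from 5.12 CPM in β cluster 0 to 212 in β cluster 1 of the vehicle library, and from 10.0 in β cluster 0 to 1060 in macrophages of the FAKi library. *Zg16* ran from 6.05 to 805 CPM in vehicle and from 11.6 to 732 in FAKi, and *Sycn* from 6.45 to 243 and from 10.1 to 546. *Gp2* stayed between 0.221 and 15.8 CPM in vehicle and between 0.451 and 76.7 in FAKi. *Klk1b5* had at most 4 UMIs in any of these classes and none in 7 of 12 vehicle classes, where 0 UMIs allow, in β cluster 0, up to 0.132 CPM (a floor of 3 UMIs).

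To see which cells held these UMIs, cells were split at 50 UMIs of the 25 other acinar secretory genes, a limit chosen after the data were seen. Such cells made up 581 of 3529 non-acinar cells in vehicle (16.5%) and 945 of 2772 in FAKi (34.1%), and the share was higher in FAKi in 12 of 12 classes. The 12 classes share 1 library per condition, so they are not 12 separate observations. The limit is not scaled to depth, which differed in either direction. Median UMIs were 3764 and 13826 in cells labelled T cells and 5752 and 4836 in endothelial cells, vehicle first. In endothelial cells 9.21% and 22.3% of cells were past the limit, and they held 65.7% and 73.5% of the class's UMIs of the 9 genes. In such endothelial cells *Rnase1* stood at 527 and 623 CPM, and in the remaining ones at 27.9 and 40.3. In macrophages the share was 10.9% and 27.3%, and in α-cells 31.1% and 41.5%. The share of the UMIs of the 9 genes held by such cells was low in β cluster 0 (10.6% and 23.2%), in δ-cells (41.3% and 49.0%) and in vehicle ductal cells (29.9%). *Zg16*, *Sycn* and *Rnase1* were found together in 86.0% of such endothelial cells in vehicle and 68.3% in FAKi, against 1.22% and 1.91% of the rest, so these transcripts occurred in the same cells.

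**Figure D4:**
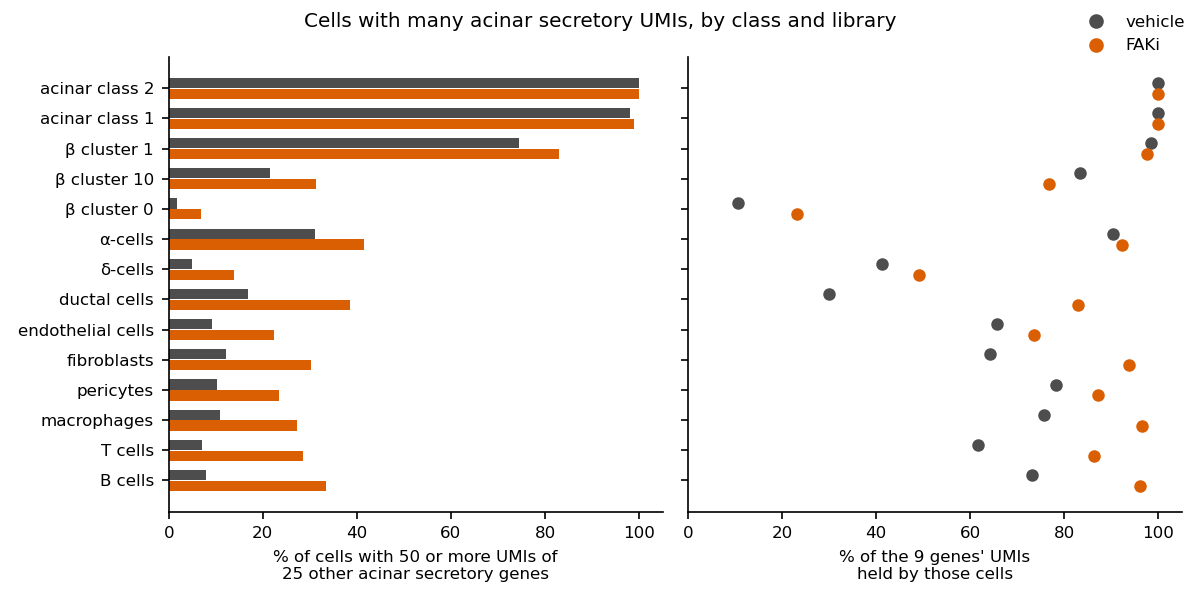
Left, bars of the percent of the cells of each class with 50 or more UMIs of the 25 other acinar secretory genes, and right, points for the percent of the class's UMIs of the 9 genes held by those cells, with vehicle in grey and FAKi in orange. In each of the 12 non-acinar classes, which share 1 library per condition, the FAKi bar is the longer, and β cluster 1 reaches 74.4% and 83.0%.

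Endothelial cells and the classes labelled macrophages, B cells and T cells, pooled as endothelial and immune cells, were compared between the libraries. Whether these cells make any of the 9 transcripts themselves was not tested. In vehicle, 1 cell labelled a T cell, with *Krt19* and *Epcam*, held 66 of the 93 *Dmbt1* UMIs of the pool. *Rnase1* was at 100 CPM in 953 vehicle cells and 324 in 361 FAKi cells, a ratio of 3.23 (2.92 to 3.58). *Klk1* had a ratio of 2.98 (2.14 to 4.15), *Gp2* 4.45 (2.88 to 6.98), *Zg16* 2.37 (2.15 to 2.60) and *Sycn* 2.28 (2.04 to 2.54). *Ggh* did not follow, with 59.99 and 57.87 CPM and a ratio of 0.965 (0.796 to 1.17). Of 6 members past the filter, 4 were at least 2-fold higher in FAKi, where 1.28% of 8677 genes were, and 15 of 19 other acinar secretory genes past it were as well. None of the 4 stayed at 2-fold when the cell with the most UMIs of the 9 genes was left out of each library, which in FAKi is the cell described next, with log2 ratios of 0.67 for *Zg16*, 0.66 for *Sycn*, 0.54 for *Rnase1* and 0.43 for *Klk1*. The median log2 ratio of the 9 genes was 1.20, beside -0.10 for all genes. Leaving out the cells labelled T cells, which in FAKi carried β-cell markers, gave 1.53. The 6 acinar markers moved with the library too, at 2330 and 4345 CPM in endothelial cells, 2178 and 13696 in macrophages, 2145 and 2664 in T cells and 2797 and 7832 in B cells, vehicle first, and their part was not tested.

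Much of this difference was held by 1 FAKi cell labelled a macrophage. With 24610 UMIs, of which 12893 were of the 25 acinar genes, it held 487 of the 539 *Rnase1* UMIs of its class (90.4%), 297 of *Zg16*, 210 of *Sycn*, 47 of *Klk1* and 37 of *Gp2*. Without it the level of *Rnase1* in FAKi macrophages went from 1060 to 108 CPM and that of *Gp2* from 76.7 to 4.13, and with the top cell of the vehicle library left out as well the median log2 ratio of the 9 genes in endothelial and immune cells went from 1.20 to 0.54. A FAKi cell labelled a fibroblast, with 14731 UMIs, likewise held 274 of the 396 *Rnase1* UMIs of its class, and without it the level went from 678 to 214 CPM.

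β cluster 1 carried more *Rnase1*, *Zg16* and *Sycn* than the other β clusters, among which β cluster 10 held *Rnase1* at 47.4 and 40.2 CPM, vehicle first. *Rnase1* in α-cells was at 163 CPM in vehicle (151 to 177), below β cluster 1 (201 to 223), and at 204 in FAKi (192 to 215), where the interval of β cluster 1 (180 to 196) overlapped it. *Zg16* was lower in α-cells than in β cluster 1 in both libraries, at 215 and 257 CPM. In vehicle, *Rnase1* was at 212 CPM in β cluster 1 and 5.12 in β cluster 0, a ratio of 41.3 (34.2 to 50.4), *Zg16* at 332 and 6.05, a ratio of 55.0 (46.2 to 65.8), and *Sycn* at 243 and 6.45, a ratio of 37.7 (31.9 to 45.0). In FAKi the ratios were 18.8 (16.4 to 21.5), 24.8 (21.9 to 28.1) and 20.5 (18.0 to 23.5), with more UMIs in β cluster 0. *Klk1* was at 23.0 and 0.706 CPM in vehicle and 20.2 and 1.31 in FAKi. *Ggh* differed little, at 15.1 and 12.6 CPM in vehicle, a ratio of 1.20 (0.954 to 1.502), and 14.9 and 9.85 in FAKi, a ratio of 1.51 (1.23 to 1.86).

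Among genes with 100 UMIs in the pair of clusters, 4 of 5 members were at least 2-fold higher in β cluster 1 in vehicle, against 0.485% of 9490 genes, and 6 of 7 in FAKi, against 0.351% of 9685. *Klk1* in vehicle, and *Klk1*, *Gp2* and *Cuzd1* in FAKi, passed this filter through the UMIs of β cluster 1, so they had to be higher there, whereas *Zg16*, *Sycn* and *Rnase1* had over 100 UMIs in β cluster 0 alone. The clusters were drawn with these genes among the data, so the counts are a description. The median log2 ratio over the 9 genes was 3.45 in vehicle and 3.201 in FAKi, beside -0.09 and -0.07 over all genes. All 20 of the other acinar secretory genes past the filter were higher as well, in both libraries. None of 16 genes of regulated exocytosis was past 2-fold. Any of the 20 that passed through the UMIs of β cluster 1 had to be higher there, and how many did was not counted. Their whole list held 5141 UMIs in β cluster 0 and 85619 in β cluster 1 in vehicle, and 10806 and 112311 in FAKi. Of the 20, *Cpa1*, *Prss2*, *Ctrb1*, *Cela1* and *Pnlip* had over 100 UMIs in β cluster 0 alone in both libraries. At least 1 *Rnase1* UMI was present in 73.8% and 82.1% of β cluster 1 cells, against 14.2% and 26.2% of β cluster 0 cells and 22.1% and 33.5% of endothelial and immune cells. After thinning to 1000 UMIs these shares were 18.9% and 20%, against 0.462% and 0.593% and against 7.47% and 14.6%. The median depths were 20070 and 16908 UMIs in β cluster 1, 34677 and 34237 in β cluster 0 and 5186 and 4883 in endothelial and immune cells.

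Set against the other acinar secretory UMIs, the mixture of members found outside the acinar classes differed in part from that within them. *Rnase1* was at 33.9 per 1000 in vehicle class 2 and 26.9 in class 1, and in the 12 other vehicle classes between 14.97 and 22.56, with the interval of the ratio to class 2 below 1 in 12 of 12. In FAKi it was at 28.4 in class 2 and 24.3 in class 1, and lower than class 2 in 9 of 12 classes. *Sycn*, at 25.4 and 25.5 in class 2, was lower in 7 and 8 of 12 classes. *Zg16* was at 29.0 in vehicle class 2 with a median of 27.1 over the other classes, being lower in 3 of 12, and at 31.2 in FAKi class 2 with a median of 25.9, being lower in 9 of 12. In β cluster 1 the values were 17.8 for *Rnase1*, 20.5 for *Sycn* and 28.0 for *Zg16* in vehicle, and 18.2, 19.9 and 27.8 in FAKi. There were 1.57 *Zg16* UMIs per *Rnase1* UMI in vehicle β cluster 1 (1.47 to 1.68), against 1.09 in class 1 (1.05 to 1.14) and 0.855 in class 2 (0.841 to 0.870). In FAKi β cluster 1 had 1.53 (1.45 to 1.62), class 1 1.08 (1.05 to 1.12) and class 2 1.10 (1.08 to 1.12), while macrophages and fibroblasts, each with 1 cell that held most of their *Rnase1*, had 0.690 and 0.669.

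*Dmbt1* in vehicle β cluster 1 was at 0.397 per 1000, a ratio to class 2 of 0.189 (0.131 to 0.265), and *Gp2* at 1.03 against 2.44 in class 2, a ratio of 0.422. In FAKi the ratios were nearer to 1, at 0.451 (0.353 to 0.568) for *Dmbt1* and 0.739 (0.639 to 0.852) for *Gp2*, and that of *Cuzd1* was 0.990 (0.820 to 1.19) against 0.626 in vehicle. In α-cells, too, *Rnase1* was low on this scale, at 19.0 in vehicle (ratio 0.561, 0.518 to 0.608). The FAKi macrophages were an exception, with 34.4 *Rnase1* UMIs per 1000, and without the cell named above they were at 18.8. FAKi fibroblasts were at 29.5, and at 19.9 without the fibroblast-labelled cell named above. FAKi ductal cells were at 27.3, and at 19.9 without the cell that held the most *Rnase1*. The source of these transcripts in non-acinar cells was not tested.

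**Figure D5:**
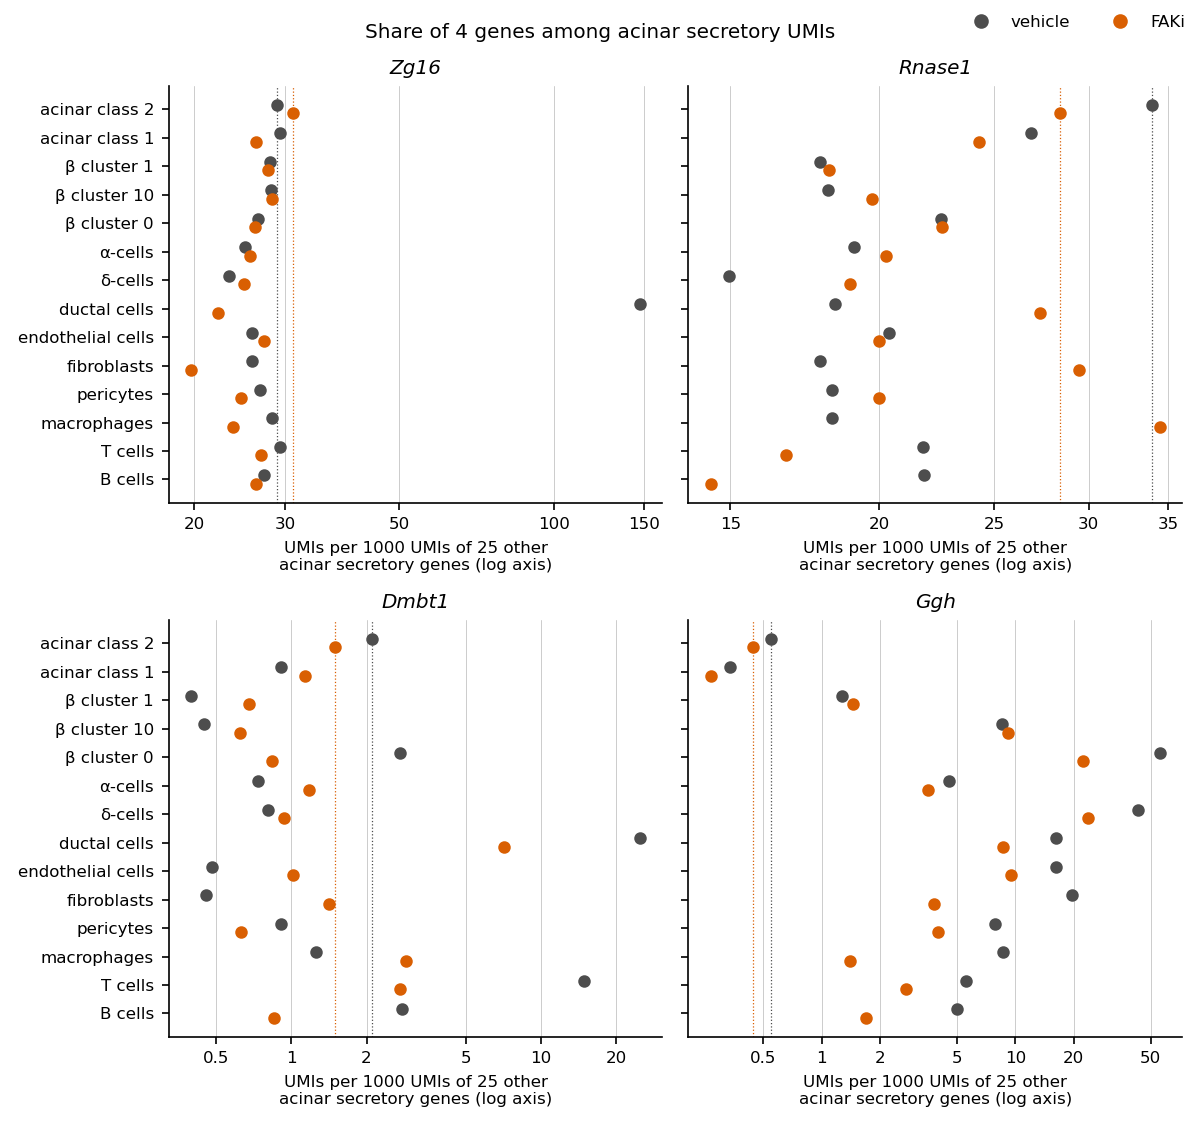
UMIs of *Zg16*, *Rnase1*, *Dmbt1* and *Ggh* per 1000 UMIs of the 25 other acinar secretory genes (log axis) in 14 cell classes, with vehicle in grey, FAKi in orange and dotted lines at the value of acinar class 2. *Rnase1* lies left of its line in all 12 non-acinar vehicle classes, while *Zg16* and *Dmbt1* are far to the right in vehicle ductal cells and *Ggh* in nearly all non-acinar classes.

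*Zg16* and *Dmbt1* were also high in single cells with few other acinar transcripts. In vehicle ductal cells *Zg16* stood at 805 CPM, or 147 per 1000 acinar secretory UMIs, and 2 of the 498 cells accounted for most of it. The first, with 18045 UMIs, held 2365 UMIs of *Zg16* and the second, with 11290 UMIs, held 1727. Both carried genes of intestinal goblet cells, *Muc2* at 244 and 133 UMIs, *Tff3* at 866 and 556, *Fcgbp* at 554 and 335 and *Spink4* at 441 and 312, and they had 0 UMIs of *Rnase1* and 20 and 8 UMIs of the 25 acinar genes. They also held 55 and 28 UMIs of *Klk1*, and 1 and 0 of *Sycn*. Without them the level of *Zg16* in vehicle ductal cells was 151 CPM and that of *Klk1* went from 25.9 to 12.7 CPM. ZG16 is known as a lectin of the intestinal mucus as well. No cell of the FAKi library held 500 UMIs of 6 goblet-cell genes, the highest ductal cell having 389, and none outside the ductal class did in either library.

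*Dmbt1* was at 136 CPM in vehicle and 82.9 CPM in FAKi ductal cells. Of the ductal cells, 15 of 498 in vehicle and 5 of 156 in FAKi had at least 10 of its UMIs, and these held 88.4% and 76.7% of the class's *Dmbt1* UMIs. Of them, 14 of 15 and 4 of 5 had fewer than 10 UMIs of *Rnase1*, so the transcript was not accompanied by the acinar ones there. The highest held 143 UMIs of *Dmbt1* among 27803, with 62 of *Krt19*, 188 of *Spp1*, 1 of *Prss2* and 0 of *Rnase1*. In the *Dmbt1*-high cells *Krt19*, a ductal keratin, was at 2505 and 1546 CPM, against 1450 and 1038 in the other ductal cells. Among vehicle cells labelled T cells, 1 held 66 of the 67 *Dmbt1* UMIs, together with 95 UMIs of *Krt19*, 61 of *Epcam* and 0 of *Cd3e* and *Ptprc*, and without it the level in that class went from 67.9 to 1.04 CPM.

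*Ggh* was the member with a broad pattern. After the acinar classes it was highest in ductal cells (89.2 and 100.4 CPM), fibroblasts (85.8 and 87.3), endothelial cells (80.6 and 81.2) and pericytes (67.8 and 76.5), followed by δ-cells (57.2 and 45.9), macrophages (40.0 and 43.3) and α-cells (38.8 and 35.4). β cluster 0 was lowest, at 12.6 and 9.85. The intervals of these neighbours overlapped, and the order down to α-cells was the same in both libraries. The split at 50 acinar secretory UMIs gave no single direction for *Ggh*. In endothelial cells it was at 87.1 CPM under the limit and 43.3 past it in vehicle, and at 83.2 and 74.2 in FAKi. In pericytes it was at 64.5 under the limit and 89.5 past it in vehicle and at 53.3 and 148 in FAKi, and in α-cells at 37.2 and 43.9 in vehicle and 30.6 and 45.9 in FAKi. Per 1000 acinar secretory UMIs it was above class 2 in 12 of 12 non-acinar classes in vehicle and 11 of 12 in FAKi. At least 1 *Ggh* UMI was present in 56.0% and 62.8% of ductal cells and in 29.2% and 31.9% of endothelial and immune cells.

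The wider families gave few further genes with enough UMIs. Of 19 genes listed for the tissue kallikrein family 10 were in the table, and *Klk1* was the only one past 100 UMIs in the class comparisons, and *Klk1b5* reached that number in class 2 between libraries. Of 12 ribonuclease genes and their inhibitor, 8 were in the table and 2 and 4 passed in the class comparisons, among which *Rnase1* alone was past 2-fold, in FAKi. Among 12 genes of proteins with zona pellucida, CUB or scavenger receptor domains, 9 were in the table and the 3 that passed in acinar cells were *Gp2*, *Cuzd1* and *Dmbt1* themselves. Of 14 genes of folate metabolism, *Ggh* alone passed in acinar cells. In the class comparisons it was past 2-fold in both libraries, but it passed the filter there only through its UMIs in class 2. Among 20 genes of regulated exocytosis 2 passed in the class comparisons, and *Cpe*, a carboxypeptidase of endocrine granules, was more than 2-fold higher in class 1 in both libraries. Of the 25 other acinar secretory genes, 2 of 21 were at least 2-fold lower in class 1 in vehicle (*Pnliprp1* and *Pnliprp2*), with *Prss3* higher, and 6 of 22 in FAKi, among them *Amy1*, *Clps* and *Spink1*. Their medians over the genes past the filter were -0.58 and -0.87 on the log2 scale, beside -1.10 and -1.15 for the 8 members past it. Between the libraries none of them was past 2-fold in either acinar class.

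Over 34 groups of cells (17 clusters in 2 libraries), the genes whose log2(CPM + 1) pattern was most like that of a member were mostly other digestive enzymes. *Sycn* was nearest to *Ctrb1* and *Prss2* (Pearson r = 0.996 for both) and *Cpa1*, *Rnase1* to *Cel* (r = 0.995), *2210010C04Rik* and *Pnliprp1*, and *Zg16* to *Cela2a* (r = 0.988), *Prss2* and *Try4*. *Gp2* was nearest to *Reg1* (r = 0.973), *Pnliprp1* and *Pnliprp2*, and *Klk1* to *Reg1* (r = 0.976), *Tff2* and *Try10*. *Cuzd1* was nearest to *Serpini2* (r = 0.965), *Pla2g1b* and *Tmed11*, and *Klk1b5* to *Tmed11* (r = 0.951), *Amy2a3* and *Hamp2*. *Dmbt1* was nearest to *Tff2* (r = 0.917), a mucosal trefoil peptide, *Ggt1* and *Spink1*, and *Ggh* to *Lcmt1* (r = 0.839), *Homer2* and *Prdx4*. These came from 14092 genes compared over groups that share libraries, and acinar clusters set most of the range, so the values are a description.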

How the data were processed

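Cells were profiled by 3′ droplet scRNA-seq in 1 vehicle and 1 FAKi library. The authors counted UMIs with Cell Ranger on mm10 (GRCm38, from the submitters' processing notes), aggregated the libraries and filtered cells by detected genes and mitochondrial share in Seurat 3.1. The deposited values are raw UMI counts, and the percent of mitochondrial UMIs per cell was computed by the authors and deposited with their clusters and cell classes. The lanes cannot be separated in the files.

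UMIs were summed per class and library and given as CPM. Ratios carry exact conditional binomial, levels exact Poisson and shares Clopper-Pearson 95% intervals, which cover counting error only, since cells of 1 library are no replicates. Log2 ratios use a pseudocount of 1 CPM. Counts of genes past 2-fold cover genes with at least 100 UMIs. Cells were thinned to 1000 UMIs with seed 0, and doublets marked with scrublet in scanpy 1.11.5. Sums and intervals were made with pandas 2.3.3, scipy 1.17.1 and numpy 2.4.6 under python 3.11.15, sequences were handled with biopython 1.88, and plots with matplotlib 3.10.9. Ratio intervals were tested on simulated data.

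The members and gene lists were chosen with earlier results of these data known. Named were all 9 members, of each list the genes past 2-fold (at most 4), per member the 3 genes most alike over clusters, and class markers. The single cells described were chosen after their values were seen. Alternatives were the mean of each cell's CPM, totals without the 20 most abundant or the hormone genes, cells without doublets, with at least 1000 UMIs or under 5% mitochondrial UMIs, without the cell with the most member UMIs of each group and library, a pseudocount of 0.1 CPM, thinned cells and a minimum of 20 UMIs.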

Additional observations from a re-analysis of the deposited data

Results flagged for a closer look

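*Zg16* moved in opposite directions between the libraries in the acinar classes. Its ratio of FAKi over vehicle was 0.723 in class 1 and 1.07 in class 2, and neither interval held 1. The difference between the classes was not tested, and the value of class 2 turned below 1, to a log2 ratio of -0.019, when each cell was given equal weight.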

How the results depend on the processing

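No paired analysis was possible because each condition is 1 library, and for the same reason no replicate could be left out. Of 65 alternative values for the comparisons, 52 kept their direction within counting error, 12 moved and 1 turned. The class 1 over class 2 median (log2, vehicle then FAKi) became -1.39 and -1.46 as a mean over cells and -1.94 and -1.80 without the 20 most abundant genes, and -0.80 in FAKi without hormone genes. The FAKi over vehicle median on thinned cells was -0.11 in class 1 and turned to 0.011 in class 2, where the mean over cells gave -0.056. The β-cluster median became 5.22 in vehicle with a pseudocount of 0.1 CPM and 4.43 in FAKi on thinned cells. In endothelial and immune cells it became 0.54 without the cell with most member UMIs of each library, 1.01 on thinned cells and 0.12 in cells under 50 acinar secretory UMIs, an alternative chosen after seeing the data, which removes cells by genes that move with the members so that a smaller difference is partly built in.

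Of 599 values for single genes and shares of genes 426 stayed, 164 moved and 9 turned. In class 2 between libraries, as a mean over cells, *Cuzd1* turned to 0.15, *Zg16* to -0.019 and *Dmbt1* to 0.11, and on thinned cells *Cuzd1* turned to 0.20, *Dmbt1* to 0.011 and *Ggh* to 0.26. In endothelial and immune cells *Dmbt1* turned to -0.64 without these cells and to -1.45 in cells under 50 acinar secretory UMIs, where *Klk1* turned to -0.056. The cause was not tested. With a minimum of 20 in place of 100 UMIs, the share of genes at least 2-fold lower went from 6.17 to 3.29% for class 1 over class 2 in FAKi, and between libraries from 1.35 to 3.14% in class 1 and from 0.73 to 2.11% in class 2. The share at least 2-fold higher went from 0.485 to 0.804% for the β-clusters in vehicle and from 1.28 to 2.45% in endothelial and immune cells, since more genes with few UMIs entered. *Klk1b5*, with 140 UMIs in all, limits any statement on it.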

Other observations

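Within acinar class 2, cell by cell, the members did not rise and fall as 1 block. Over the 28 pairs of members detected in at least 60% of cells, the Pearson correlation of log2(CPM + 1) had a median of 0.07 in vehicle and 0.04 in FAKi. The highest pair was *Cuzd1* and *Dmbt1* in vehicle (r = 0.52, 86 cells) and *Gp2* and *Dmbt1* in FAKi (r = 0.47, 114 cells). The lowest was *Sycn* and *Klk1* in vehicle (r = -0.30) and *Gp2* and *Zg16* in FAKi (r = -0.45). In class 1, where 6 pairs among *Zg16*, *Sycn*, *Klk1* and *Rnase1* could be read, the median was 0.35 in vehicle and 0.25 in FAKi. The cells of a group share a library, and sparse counts at differing depth enter each value.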
